A study of Mus musculus with 40 samples.

Results

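Cyclophilins are the proteins to which the immunosuppressant cyclosporin A (CsA) binds in cells, and 7 of their genes were followed here in mouse aorta: Ppia, Ppib, Ppic, Ppid, Ppif, Ppig and Ppih. They are defined by gene symbol, and the definition uses no measured value, although the family was picked with earlier results of these data known. All 7 were found in both expression tables of the study, among 15399 genes listed for the CsA experiment and 17402 listed for the genotype experiment, and all 7 passed the filter on low values.

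The study sequenced polyadenylated RNA of whole aortas from male mice, freed of adventitia and perivascular tissue, with 3 aortas pooled per library. The CsA experiment held 18 libraries from C57BL/6J mice, with 3 libraries in each of 6 groups. WT mice received no CsA and CsA mice carried a CsA minipump for 5 days, and each was either left untreated or given angiotensin-II (Ang-II, a pressor peptide) at 1 µg/kg/min for 2 h or 24 h. The WT mice carried no pump during those 5 days, so that the drug and its pump cannot be told apart. In this experiment mice under Ang-II were kept for sequencing when their systolic pressure passed 130 mmHg. The genotype experiment held 22 libraries from mice that entered at 10 to 12 weeks of age. The labels give all of them as floxed for CnB1 (Ppp3r1, the regulatory subunit of calcineurin), with the Myh11-CreERT2 transgene in SM-Cn-/- and without it in Cn-Ctl. The study's own definition of Cn-Ctl is wider and also takes in mice with the transgene and unfloxed CnB1. The promoter of the transgene places the deletion in cells with active smooth muscle myosin. Both genotypes had received tamoxifen at 1 mg daily for 5 days and waited 6 weeks before the experiment. They were untreated or given Ang-II at the same dose for 2, 6 or 24 h, with 3 libraries per group except for 2 in untreated Cn-Ctl and 2 in Cn-Ctl at 24 h. Among treated mice only Cn-Ctl were selected by the pressure limit. SM-Cn-/- mice were left out where the deletion of CnB1 could not be shown, and CsA mice where the drug's action could not be shown in the thymus.

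Cyclophilins are peptidyl-prolyl isomerases: they turn the peptide bond before a proline and so assist protein folding. CsA occupies their active site, and the complex of CsA with cyclophilin A, rather than the drug alone, blocks the phosphatase calcineurin. The family is spread over the cell. Cyclophilin A (Ppia) is cytosolic and can be secreted, cyclophilins B (Ppib) and C (Ppic) enter the secretory pathway, cyclophilin 40 (Ppid) is a partner of HSP90, and cyclophilin D (Ppif) sits in the mitochondrial matrix, where it sensitizes the permeability transition pore. Cyclophilins G (Ppig) and H (Ppih) are nuclear, the first with a domain rich in serine and arginine and the second as part of the spliceosomal U4/U6 particle.

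In the annotation of build GRCm38 (GENCODE M21) the 7 genes lie on 7 chromosomes. Ppia (ENSMUSG00000071866) lies at chr11:6415443-6419817 on the plus strand and Ppib (ENSMUSG00000032383) at chr9:66060222-66066623 on the plus strand. Ppid (ENSMUSG00000027804) lies at chr3:79591342-79603650 on the plus strand, Ppif (ENSMUSG00000021868) at chr14:25694154-25700468 on the plus strand, Ppig (ENSMUSG00000042133) at chr2:69722545-69754012 on the plus strand and Ppih (ENSMUSG00000060288) at chr4:119300010-119320546 on the minus strand. Each record spans the exons and introns of 1 protein-coding gene, and Ppic is ENSMUSG00000024538.

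The 250 bases before the start of 3 of these genes are shown, since the cytosolic, the endoplasmic reticulum and the mitochondrial member carry most of what follows: Ppia is the most abundant member, Ppib has the next highest level, and Ppif has the largest difference between CsA and WT. They and their starts come from RefSeq (build GRCm38.p6, plus strand, 5′ to 3′), at chr11:6415617-6415866, chr9:66059919-66060168 and chr14:25693920-25694169. RefSeq starts differ from those of the annotation above: the stretch of Ppia lies wholly inside the gene span given there, and that of Ppif by its last bases. Capitals mark matches to the motifs named in the next paragraph.
Ppia: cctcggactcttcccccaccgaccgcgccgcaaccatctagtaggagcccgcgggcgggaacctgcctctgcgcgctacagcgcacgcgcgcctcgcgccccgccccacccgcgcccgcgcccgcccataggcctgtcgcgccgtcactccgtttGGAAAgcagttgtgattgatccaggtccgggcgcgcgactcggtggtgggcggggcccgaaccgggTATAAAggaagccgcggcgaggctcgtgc
Ppib: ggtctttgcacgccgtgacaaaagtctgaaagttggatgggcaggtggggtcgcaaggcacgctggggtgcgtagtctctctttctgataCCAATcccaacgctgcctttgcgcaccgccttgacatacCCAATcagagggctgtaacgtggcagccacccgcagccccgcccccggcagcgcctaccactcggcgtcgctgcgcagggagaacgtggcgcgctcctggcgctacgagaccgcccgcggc
Ppif: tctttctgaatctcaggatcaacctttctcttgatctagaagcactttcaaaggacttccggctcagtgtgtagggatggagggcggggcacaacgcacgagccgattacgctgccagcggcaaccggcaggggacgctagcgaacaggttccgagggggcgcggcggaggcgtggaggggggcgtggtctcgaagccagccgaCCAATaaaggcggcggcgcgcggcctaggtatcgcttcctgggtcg

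Windows of 300 bases, 250 before and 50 after the start, were found for 5 of the 7 members (Ppia, Ppib, Ppif, Ppig and Ppih). All 5 were richer in G and C than the median window (52.7%), from 58.0% in Ppih to 72.3% in Ppig. The NFAT core GGAAA, searched like all motifs on both strands, was in the windows of Ppia, Ppig and Ppih, and in 61.3% of all 32851 windows. The CCAAT box CCAAT was in those of Ppib (160 and 121 bases before the start) and Ppif (46 bases before it), against 37.4% of all windows. The TATA box TATAAA was 29 bases before the start of Ppia alone, against 13.6%, and the heat shock element core GAANNTTC was in the window of Ppih alone, against 7.86%. None of the 5 windows held the AP-1 site TGANTCA (7.81% of all windows), the CRE TGACGTCA (1.79%), the direct repeat with a spacer of a single base that PPAR binds (0.0396%) or the endoplasmic reticulum stress response element (0.119%), which begins with the letters of the CCAAT box. These are matches of letters in a fixed window and no more.

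The libraries of the CsA experiment held 18.98 M to 38.9 M assigned reads (median 22.82 M) and those of the genotype experiment 2.73 M to 10.25 M (median 6.52 M). With its deeper libraries the CsA experiment rests each cyclophilin on more reads: Ppif, for example, had 200 to 872 reads per library there and 30 to 134 in the genotype experiment. All levels below are normalized signals on the study's scaled library sizes, and their sum per library was not fixed at 1 M. The sum was 877583.3 to 939726.7 in untreated WT and 1040808.3 to 1154873.6 in WT at 2 h. At 2 h it was 1105204.5 to 1179362.0 in Cn-Ctl and 938858.6 to 1027236.4 in SM-Cn-/-. Differences between such groups therefore depend on this scaling, and differences in reads per 1 M assigned reads were not tested. Rcan1, a calcineurin target whose RNA serves as a readout of calcineurin activity, was lower in CsA than in WT at 2 h (log2 difference -1.16, adjusted p = 0.0182) and at 24 h (-1.41, adjusted p = 0.00335), and lower in SM-Cn-/- than in Cn-Ctl averaged over the 4 times (-1.84, adjusted p = 2.83e-07, all by limma). In untreated aortas Rcan1 was not called between CsA and WT. Ppp3r1 itself did not pass the test between the genotypes (-0.23, SE 0.17, adjusted p = 0.47). Its reads were counted over the whole gene and in all cells of the tissue, and its floxed exons were not examined apart. Smooth muscle markers (Myh11, Acta2, Tagln, Cnn1, Smtn and Lmod1) summed to 16240 or more in every library of the CsA experiment.

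Per kilobase of exon, Ppia stood far above the other members in every library. Over the 18 libraries of the CsA experiment its mean was 175.9 signal units per kilobase, followed by Ppib (50.2), Ppic (29.9), Ppig (11.1), Ppid (10.7), Ppif (2.70) and Ppih (2.58). The order from Ppia to Ppib, from Ppib to Ppic and from Ppic to Ppig held in all 18 libraries with no overlap of their ranges. Ppig and Ppid were in that order in 10 of 18 libraries, and so were Ppif and Ppih. By this length neither pair was separated beyond its spread. In the genotype experiment the first 5 places were the same (Ppia 268.9, Ppib 56.8, Ppic 42.3, then Ppig at 17.6 and Ppid), and Ppih (3.81) stood above Ppif (2.37) in 19 of 22 libraries. The length used matters here, since the exons of Ppia and Ppib include a transcript with a retained intron. Per kilobase of the longest protein-coding transcript, a choice made after seeing the data, Ppia was at 425.5, Ppib at 185.9, Ppic at 29.9, Ppid at 28.4, Ppig at 14.5, Ppif at 8.79 and Ppih at 3.79. By that length Ppid stood above Ppig in all 18 libraries with no overlap of ranges. Ppif stood above Ppih in all 18, with overlapping ranges, and in 16 of 22 libraries of the genotype experiment.

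**Figure D1:**
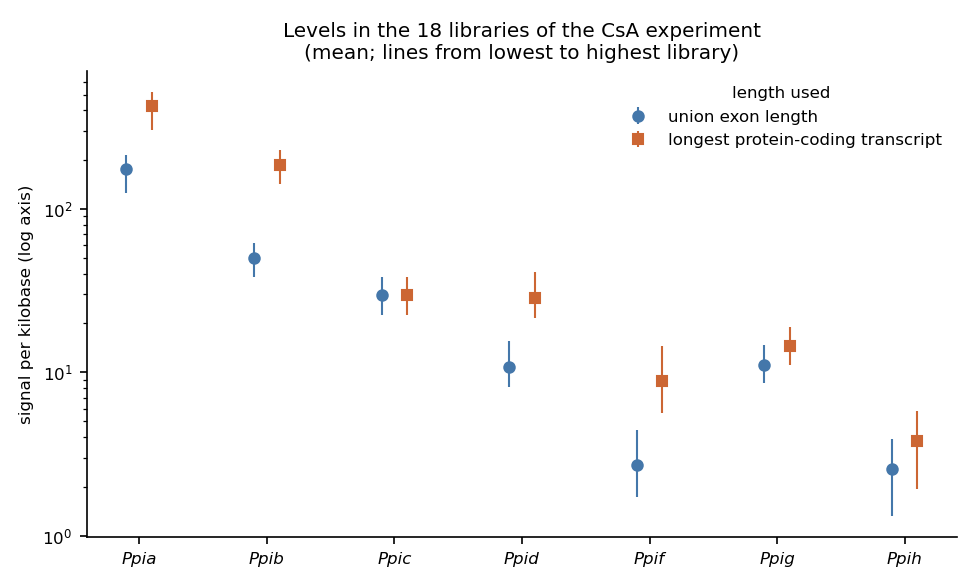
Signal per kilobase (log axis) of the 7 cyclophilins in the 18 libraries of the CsA experiment, as the mean with a line from the lowest to the highest library, for 2 definitions of gene length. Ppia was highest under both (175.9 and 425.5), and Ppih was lowest under both (2.58 and 3.79).

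Some of the members share sequence with other genes, which bears on how their reads were assigned. At 95% identity over at least 300 bases, Ppia matched 19 other genes, 18 of them pseudogenes, of which 2 (Gm10123 and Gm17494) were listed with reads equal to 9.82% of those of Ppia in the CsA experiment and 13.2% in the genotype experiment. Ppih matched 7, of which Gm10069 was listed with 20.5% and 20.0% of its reads. Ppid matched 5 and Ppig 1, with no more than 1.23% beside Ppig. Ppib overlaps Snx22 on the other strand (1.31% and 2.78% of its reads), and Ppif overlaps the antisense gene Ppifos, which neither table lists. Levels of Ppia and Ppih are therefore uncertain by the reads that such copies may have taken or given, and those of Ppib and Ppif by reads of the opposite strand.

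The first question was whether cyclophilin transcripts differ in aortas exposed to CsA, the ligand of their products. In untreated aortas they did so in both directions. Ppif was 1.98-fold higher in CsA than in WT, and Ppig was 0.80-fold as high in CsA. The other 5 members did not pass the test, and the median log2 difference of all 7 was -0.21, against -0.02 over all genes tested. By limma with Benjamini-Hochberg adjustment 2 of the 7 members were called, where 25.2% of the 13738 genes tested were called (13.9% as higher and 11.4% as lower), so that the count of members is near the background.

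Ppif had 9.72, 9.42 and 8.70 signal units in the 3 untreated WT libraries. In the 3 untreated CsA libraries it had 19.2, 18.7 and 18.7. Every CsA library was thus above every WT library, and the spread within each group was small beside the gap between them. The log2 difference was 0.99 (SE 0.24, 95% interval 0.47 to 1.51, adjusted p = 0.00859), and it remained called when any single library was left out.

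Ppig, whose product associates with the transcription and splicing machinery, had 85.7, 95.9 and 89.0 units in untreated WT. It had 74.8, 69.4 and 71.7 in untreated CsA, with every CsA library lower. The log2 difference was -0.32 (SE 0.08, 95% interval -0.49 to -0.15, adjusted p = 0.00957), and this too remained called without any single library.

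The 3 members of the cytosol and the secretory pathway were on the low side in untreated CsA without passing the test. Ppib had 159, 165 and 165 units in WT and 127, 139 and 149 in CsA (log2 difference -0.24, SE 0.10, adjusted p = 0.0856). Ppic had 49.0, 46.0 and 33.8 in WT and 33.4, 31.6 and 33.2 in CsA (-0.37, SE 0.14, adjusted p = 0.066). The WT libraries of Ppic were spread widely, with replicate 3 close to the CsA level, and without that library the difference was called (-0.53, adjusted p = 0.0191). Ppia had 529.8, 619.9 and 528 units in WT and 440.4, 513 and 533 in CsA, which overlap (-0.17, SE 0.10, adjusted p = 0.223). DESeq2 on the recovered reads called Ppib (-0.26, adjusted p = 0.0419) and Ppic (-0.42, adjusted p = 0.0276) in addition, and edgeR called Ppic (-0.40, adjusted p = 0.0499).

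Ppid, the HSP90 partner, had 53.9, 48.5 and 46.7 units in untreated WT and 43.7, 44.6 and 40.6 in CsA (log2 difference -0.21, SE 0.12, adjusted p = 0.21). Ppih, the spliceosomal member with the lowest signal, had 4.55, 5.53 and 3.51 in WT and 3.64, 5.28 and 5.60 in CsA (0.09, SE 0.21, adjusted p = 0.798). Its groups overlapped widely. Between untreated WT and CsA the libraries did not overlap for 5 of the 7 members, against 47.8% of all genes tested.

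**Figure D2:**
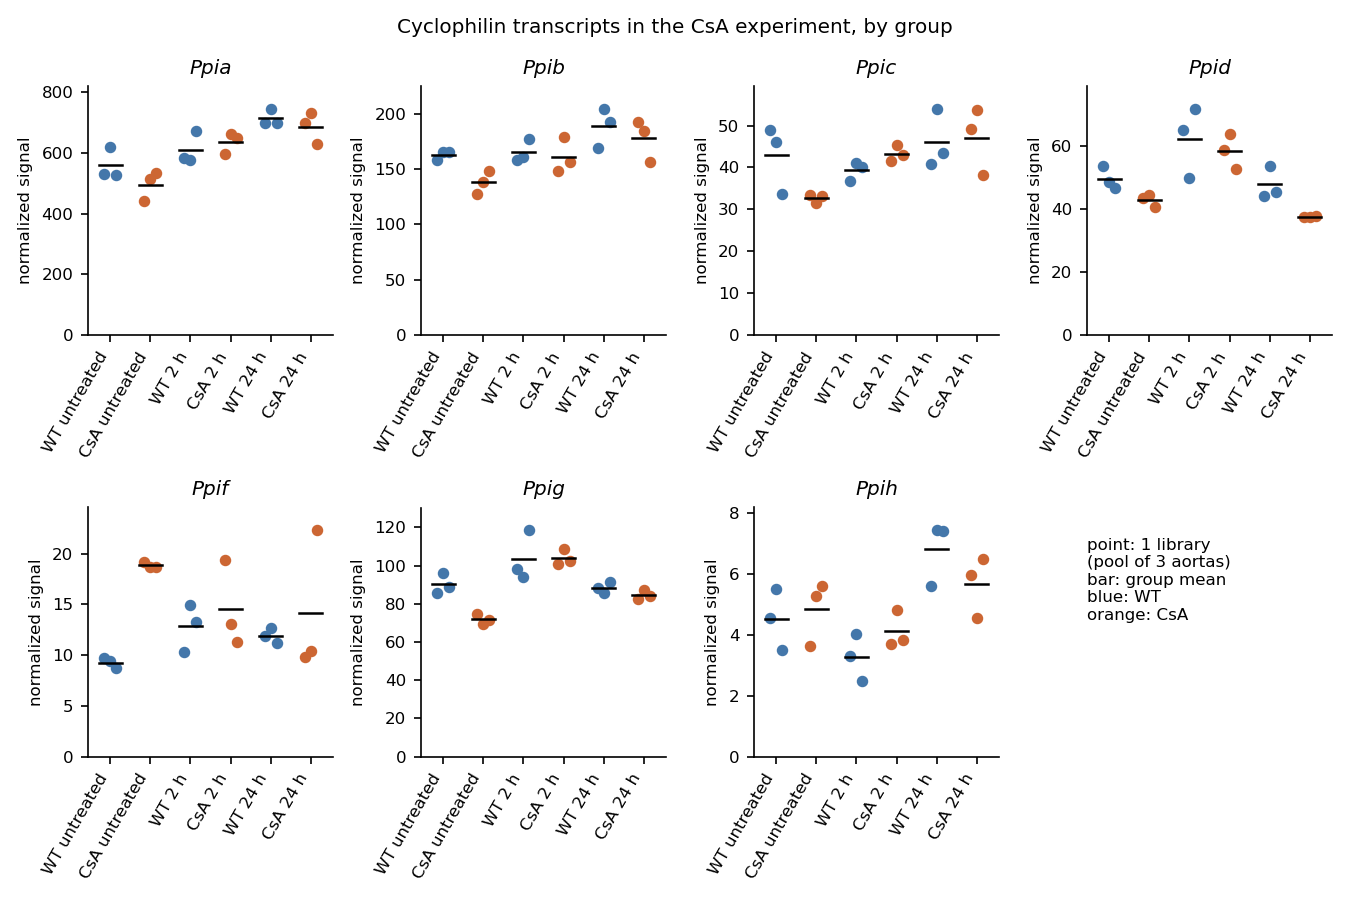
Normalized signal of each cyclophilin in the 6 groups of the CsA experiment, with 1 point per library, a bar at the group mean, WT in blue and CsA in orange. Untreated CsA libraries of Ppif sit at 18.7 to 19.2 above untreated WT at 8.70 to 9.72, and at 2 h and 24 h of Ang-II 1 CsA library of Ppif stands apart from the other CsA libraries of its group.

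Cell type markers moved with the same comparison. All 6 adipocyte markers (Adipoq, Plin1, Cidec, Fabp4, Ucp1 and Cidea) were called higher in untreated CsA, and their summed signal was 2623 to 4111 in CsA and 542 to 1047 in WT. All 6 endothelial markers (969 to 1113 against 368 to 625) and all 6 macrophage markers (252 to 321 against 91.2 to 136) were called higher too. All 6 smooth muscle markers were called lower, with sums of 16240 to 18310 in CsA and 25560 to 35070 in WT. Of the markers of adventitial fibroblasts (0 of 6), red blood cells (0 of 5) and skeletal muscle (0 of 3 listed) none was called, and the 5 T cell markers are not among the genes listed for this experiment. In pooled whole tissue, fewer cells of a type and less RNA per cell cannot be told apart.

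The libraries of the CsA experiment with high Ppif were the same as those with high adipocyte signal. The 5 libraries with the most Ppif (18.7 to 22.3 units) were also the 5 with the most adipocyte signal (2623 or more). They were the 3 untreated CsA libraries, CsA at 2 h replicate 1 and CsA at 24 h replicate 3, and the other 13 libraries lay between 8.70 and 14.9 for Ppif and at or under 2151 for the markers. Pearson r on the log2 scale was 0.87 over all 18 libraries. Among those 13 the relation was looser (Pearson r = 0.54, both given as a description over libraries that share groups). The same 5 libraries also had the 5 highest endothelial sums (968.6 or more, next 932.7) and the 5 lowest smooth muscle sums (19940 or less, next 21380), so that the match was not particular to adipocyte markers. In the genotype experiment the 5 highest libraries of each shared 1 library. Pearson r was 0.31 over its 22 libraries and 0.43 over the 17 outside the 5 with the most Ppif. There the untreated SM-Cn-/- replicate 1 had the most adipocyte signal (3801) with 9.48 units of Ppif. The part of adipocyte, endothelial or smooth muscle RNA in the difference between CsA and WT was not tested.

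**Figure D3:**
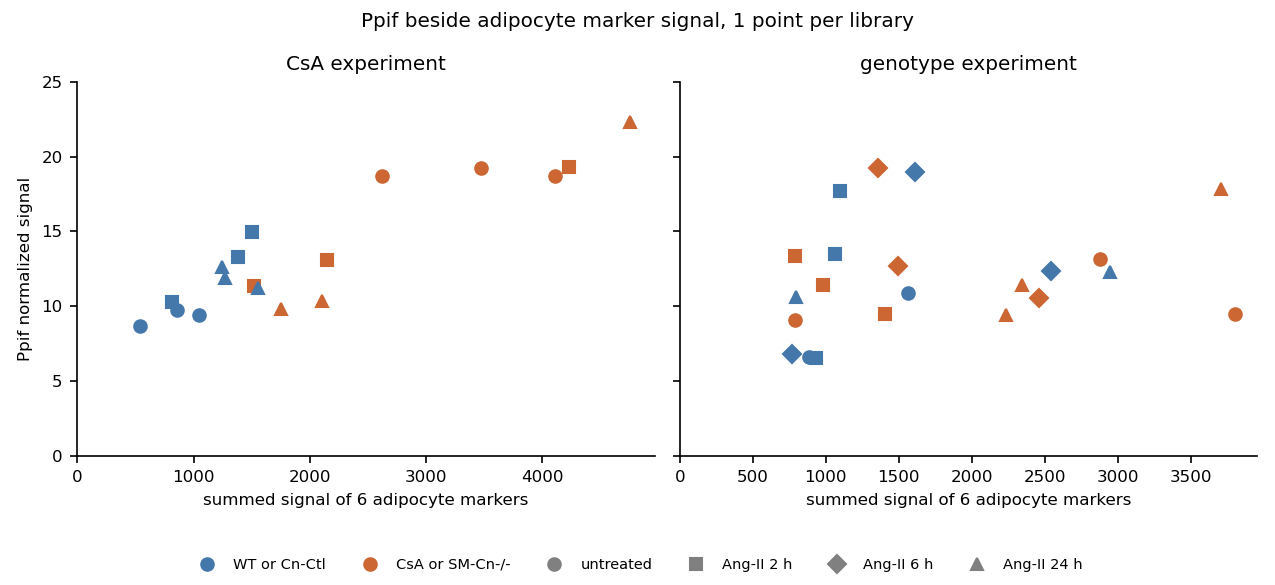
Ppif signal against the summed signal of 6 adipocyte markers, with 1 point per library, for the CsA experiment (left) and the genotype experiment (right). In the CsA experiment 5 libraries stand apart at 18.7 to 22.3 units of Ppif and 2623 or more units of marker signal, while in the genotype experiment Ppif spans 6.51 to 19.3 units with no such group.

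Under Ang-II the members did not separate CsA from WT. At 2 h limma called 0 of 7 members, where 1.33% of all genes were called, with 0 members at an unadjusted p under 0.05 and 0 called by edgeR or DESeq2. The log2 differences lay between -0.08 (Ppid) and 0.30 (Ppih), and the groups overlapped for 6 of 7 members, where the libraries of 20.2% of all genes did not overlap. At 24 h limma again called 0 of 7, against 5.58% of all genes, with 1 member at an unadjusted p under 0.05 (Ppid), 0 called by edgeR and 1 by DESeq2.

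Ppid at 24 h was the member nearest to a call. It had 44.3, 53.8 and 45.6 units in WT and 37.5, 37.6 and 37.7 in CsA (log2 difference -0.34, SE 0.12, adjusted p = 0.096 by limma and 0.0474 by DESeq2). Ppif at 24 h had 11.9, 12.6 and 11.2 units in WT and 9.84, 10.4 and 22.3 in CsA. A single CsA library, replicate 3, stood far above the others. Its log2 difference was 0.14 (95% interval -0.38 to 0.66, adjusted p = 0.783) with that library and -0.23 without it.

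Averaged over the 3 times, with equal weight for each, Ppif was higher in CsA (log2 difference 0.43, SE 0.14, adjusted p = 0.0311) and Ppid was lower (-0.21, SE 0.07, adjusted p = 0.0303). This made 2 of 7 members, against 29.0% of all genes tested. Both calls were fragile: leaving out 1 library took the adjusted p of Ppif to as much as 0.0699 and that of Ppid to as much as 0.0661. Ppig (-0.13, adjusted p = 0.0537) and Ppib (-0.12, adjusted p = 0.119) did not pass.

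**Figure D4:**
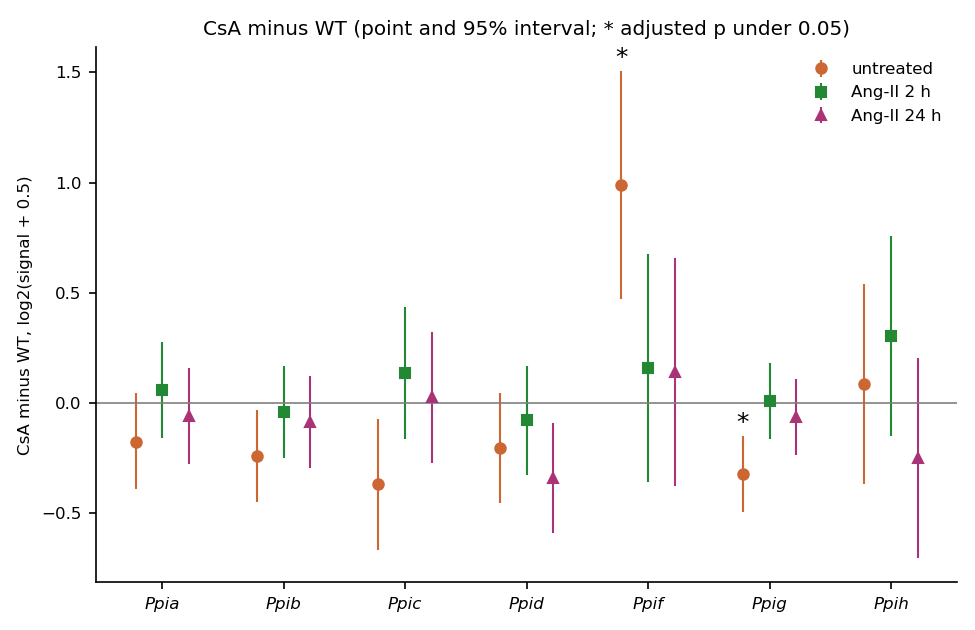
Log2 difference of signal between CsA and WT for each cyclophilin, with 95% intervals, in untreated aortas and after 2 h and 24 h of Ang-II, with an asterisk at an adjusted p under 0.05. Asterisks stand at Ppif (0.99) and Ppig (-0.32) in untreated aortas, and every other interval belongs to a difference that was not called.

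The next question was how the members respond to Ang-II with and without CsA. In WT at 2 h limma called 0 of 7 members, against 21.4% of all genes, with 2 at an unadjusted p under 0.05, 0 called by edgeR and 1 by DESeq2. That member was Ppid, with 65.2, 49.9 and 71.9 units at 2 h beside the untreated 53.9, 48.5 and 46.7 (log2 difference 0.31, SE 0.12, adjusted p = 0.072 by limma and 0.0422 by DESeq2). Replicate 2 remained at the untreated level. Ppif at 2 h had 10.3, 14.9 and 13.3 units, against 8.70 to 9.72 untreated, without passing the test (0.43, SE 0.24, adjusted p = 0.237).

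In WT at 24 h Ppia rose, and it was the 1 member called, against 35.0% of all genes (18.1% as higher). Its libraries had 698, 746 and 698 units, against 528 to 620 untreated (log2 difference 0.36, SE 0.10, adjusted p = 0.0132). The call was lost on leaving out untreated replicate 1 (adjusted p = 0.053), untreated replicate 3 (0.0537) or 24 h replicate 2 (0.0532). Ppih had 5.62, 7.45 and 7.42 units, against 3.51 to 5.53 untreated (0.55, SE 0.21, adjusted p = 0.0563), and Ppib had 169, 205 and 193 (0.21, SE 0.10, adjusted p = 0.119). Neither was called.

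In CsA at 2 h 3 members rose, against 20.1% of all genes called (12.3% as higher). Ppig had 101, 108 and 102 units against 69.4 to 74.8 in untreated CsA (log2 difference 0.53, SE 0.08, adjusted p = 0.000468), which brought it to the range of WT at 2 h (94.1 to 119). Ppid had 58.9, 63.8 and 52.8 units against 40.6 to 44.6 (0.44, SE 0.12, adjusted p = 0.016). Ppia had 596, 662 and 649 units against 440 to 533 (0.36, SE 0.10, adjusted p = 0.0214). The libraries of these 3 members did not overlap between the groups, and neither did those of Ppic (41.5, 45.4 and 42.9 against 31.6 to 33.4), which was not called (0.40, SE 0.14, adjusted p = 0.0572). Over all genes 36.9% did not overlap. The call of Ppia was lost after quantile normalization (0.11, adjusted p = 0.4), with only the groups compared (adjusted p = 0.0799), and without untreated CsA replicate 1 (0.0967) or 2 h replicate 2 (0.0816) or 3 (0.057). That of Ppid was lost without untreated CsA replicate 3 (0.0635) or 2 h replicate 2 (0.0807).

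In CsA at 24 h the 3 members that rose were Ppia, Ppib and Ppic, the cytosolic and the secretory cyclophilins, against 8.98% of all genes called (5.20% as higher). Ppia had 697, 733 and 630 units (log2 difference 0.47, SE 0.10, adjusted p = 0.0111). Ppib had 193, 184 and 157 against 127 to 149 in untreated CsA (0.36, SE 0.10, adjusted p = 0.0343). Ppic had 49.2, 53.6 and 38.3 against 31.6 to 33.4 (0.50, SE 0.14, adjusted p = 0.0366). The 24 h libraries of all 3 lay above every untreated CsA library, where 29.2% of all genes had no overlap. Each of these calls was lost on leaving out some single library, with adjusted p up to 0.153 for Ppic without 24 h replicate 2. All 3 were also lost when limma was fitted with only the groups compared (adjusted p = 0.0804 for Ppia, 0.111 for Ppib and 0.0815 for Ppic). Ppig stood at 82.5 to 87.4 units at 24 h (0.23, SE 0.08, adjusted p = 0.0855).

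Ppif ran the other way in CsA, from 18.7 to 19.2 units untreated to 19.3, 13.1 and 11.3 at 2 h and 9.84, 10.4 and 22.3 at 24 h. In each of the treated groups 1 library stayed near the untreated CsA level and the others lay near WT. With that spread the differences were not called (log2 difference -0.40, adjusted p = 0.256, at 2 h and -0.50, adjusted p = 0.204, at 24 h). The libraries that stayed high, 2 h replicate 1 and 24 h replicate 3, are those with 4226 and 4753 units of adipocyte marker signal, against 1521 to 2151 in the other 4 treated CsA libraries. They also had the highest endothelial sum of their group (973.4 and 1275) and the lowest smooth muscle sum (19940 and 18940). Without both libraries, an alternative chosen after seeing the data, the differences were -0.61 and -0.87. The libraries left out are those with the most Ppif in their groups, so that this fit cannot test the fall.

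The difference between the Ang-II responses of CsA and WT was tested directly, and limma called 0 of the 14 member values, against 0.146% of all genes at 2 h and 9.42% at 24 h. At an unadjusted p under 0.05 there were 5, and edgeR and DESeq2 called 0. The interval of Ppif excluded 0 at both times (-0.83, 95% interval -1.56 to -0.10, adjusted p = 0.308 at 2 h, and -0.85, interval -1.58 to -0.12, adjusted p = 0.127 at 24 h). Leaving out CsA at 24 h replicate 3, the library with the most Ppif in its group, gave -1.22 at 24 h. It was the only single library whose removal brought a call, so that this value does not change the result. The interval of Ppig excluded 0 at both times as well, on the positive side. It was 0.09 to 0.58 at 2 h (0.33, adjusted p = 0.23 by limma) and 0.015 to 0.50 at 24 h (0.26, adjusted p = 0.162). That of Ppic did so at 2 h (0.51, interval 0.08 to 0.93, adjusted p = 0.287). The comparisons of Ang-II with untreated aortas and of CsA with WT share the untreated libraries.

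The genotype experiment asks about the loss of calcineurin in smooth muscle without the drug. Averaged over the 4 times, Ppia, Ppib and Ppid were lower in SM-Cn-/- than in Cn-Ctl, with differences of -0.33, -0.26 and -0.25 on the log2 scale. This made 3 of 7 members, against 11.1% of all genes tested (6.69% as lower). The median log2 difference of all 7 members was -0.23, against 0.01 over all genes tested. The count rests on limma with these scaled values, since edgeR called 1 of 7 and quantile normalization left none of the 3.

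Ppia had the largest of these averaged differences (log2 difference -0.33, SE 0.08, 95% interval -0.49 to -0.17, adjusted p = 0.00732), and it remained called without any single library. At 24 h, the only time at which a member was called by itself (4.94% of all genes), Ppia had 1243 and 1028 units in the 2 Cn-Ctl libraries. It had 683, 737 and 744 in the 3 SM-Cn-/- libraries (-0.65, SE 0.16, adjusted p = 0.0224). With 2 control libraries this call is thin, and it was lost on leaving out either control library (adjusted p = 0.129 and 0.0508) or SM-Cn-/- replicate 1 (0.0859) or 2 (0.0617).

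Ppib was lower on average by the same test (log2 difference -0.26, SE 0.08, adjusted p = 0.0373). At 24 h it had 205 and 257 units in Cn-Ctl and 159, 165 and 158 in SM-Cn-/- (-0.51, adjusted p = 0.0928). The lower level was clearest at that time, and in untreated aortas the genotypes overlapped, with 193 and 177 units in Cn-Ctl and 197, 179 and 159 in SM-Cn-/-.

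Ppid was also lower on average (log2 difference -0.25, SE 0.08, adjusted p = 0.0447). At 2 h it had 112, 85.7 and 86.7 units in Cn-Ctl and 78.0, 67.6 and 64.1 in SM-Cn-/-, which was not called (-0.43, SE 0.15, adjusted p = 0.141). Leaving out single libraries cost the averaged calls of Ppib and Ppid in many cases, with adjusted p up to 0.112 for each. Endothelial markers moved with the genotype as well: 4 of 6 were called higher in SM-Cn-/-, with sums of 567 to 1319 against 299.5 to 607 in Cn-Ctl. Of the 6 smooth muscle markers 2 were called lower (Acta2 and Cnn1) and 0 higher, with sums of 20880 to 24330 against 28540 to 29140 in untreated aortas and 23120 to 28970 against 32210 to 33880 at 6 h, and sums that overlapped at 2 h and 24 h. The part of either in the cyclophilin differences was not tested.

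**Figure D5:**
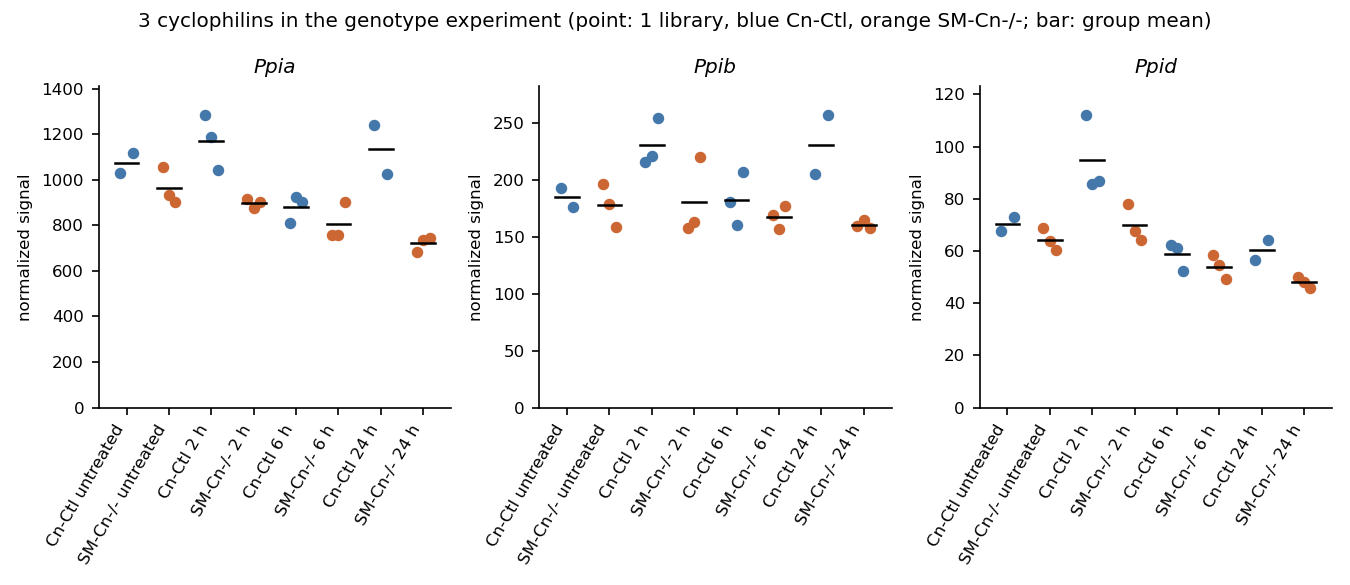
Normalized signal of Ppia, Ppib and Ppid in the 8 groups of the genotype experiment, with 1 point per library, a bar at the group mean, Cn-Ctl in blue and SM-Cn-/- in orange. At 24 h the SM-Cn-/- libraries of Ppia sit at 683 to 744 and the Cn-Ctl libraries at 1028 and 1243.

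The other 4 members were not called between the genotypes. Their averaged log2 differences were -0.23 for Ppig (adjusted p = 0.156), -0.10 for Ppic, 0.14 for Ppif (95% interval -0.28 to 0.57) and -0.13 for Ppih. In untreated aortas the interval of Ppif was wide (0.28, interval -0.62 to 1.17). Within single times limma called 0 members in untreated aortas (0.0139% of all genes; 0 at an unadjusted p under 0.05; 0 by edgeR and DESeq2), 0 at 2 h (3.70%; 3 at an unadjusted p under 0.05; 0 by edgeR and 1 by DESeq2) and 0 at 6 h (1.98%; 0 at an unadjusted p under 0.05; 0 by edgeR and DESeq2).

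Responses to Ang-II within the 2 genotypes gave no call among the 42 member values by limma or edgeR, with 4 at an unadjusted p under 0.05 and 1 called by DESeq2. Among all genes 6.23%, 3.97% and 5.62% were called at 2, 6 and 24 h in Cn-Ctl, and 1.13%, 2.34% and 0.790% in SM-Cn-/-. Without Ppih the log2 differences lay between -0.49 (Ppig) and 0.44 (Ppif). Ppih itself ranged from -1.23 to 1.05 on 0 to 104 reads per library, with 0 reads in SM-Cn-/- at 6 h replicate 3, the library of 2.73 M reads. The test of different responses between the genotypes called 0 of 21 values by limma, edgeR and DESeq2, with 1 at an unadjusted p under 0.05 and 0.0624% to 0.513% of all genes called.

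The partners of each cyclophilin were read next, from lists of genes named for their known role. The mitochondrial list, beside cyclophilin D, moved with Ppif in untreated CsA: 8 of 12 genes were higher than in WT and 0 lower, against 13.9% of all genes higher, with a median log2 difference of 0.39. They included the matrix chaperones Hspa9 (0.90, adjusted p = 0.0039) and Trap1 (0.70, adjusted p = 0.00842), the outer membrane protein Tspo (0.56, adjusted p = 0.00372) and the adenine nucleotide carrier Slc25a5 (0.59, adjusted p = 0.0138). Adipocyte, endothelial and macrophage markers were higher in the same comparison, and smooth muscle markers lower. The part of cell makeup in the mitochondrial list was not tested. At 2 h and at 24 h 0 of 12 differed between CsA and WT by limma.

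The list of endoplasmic reticulum folding partners of cyclophilins B and C was divided in untreated CsA, with 4 of 18 higher and 4 lower, where 13.9% of all genes were higher and 11.4% lower. Those lower were genes of collagen modification. They were P3h1 (-0.51, adjusted p = 0.00463) and Crtap (-0.54, adjusted p = 0.00644), whose products act with cyclophilin B on collagen prolines, together with Fkbp10 (-0.75, adjusted p = 0.00158) and P4hb (-0.31, adjusted p = 0.0375). Those higher were chaperones, among them Pdia6 (0.49, adjusted p = 0.00624) and Sdf2l1 (1.08, adjusted p = 0.00588). At 24 h of Ang-II 14 of 18 were lower in CsA than in WT and 0 higher (median -0.49, against 0.00 over all genes, 3.54% of which were lower), including Hspa5, the main lumenal chaperone (-0.81, adjusted p = 0.00502), and Pdia6 (-0.70, adjusted p = 0.00424). In WT the same list had risen by 24 h, with 16 of 18 higher and 1 lower than in untreated aortas, against 35.0% of all genes called. Ppib and Ppic were not called between CsA and WT at 24 h (log2 differences -0.09 and 0.03).

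HSP90 partners of cyclophilin 40 rose at 2 h of Ang-II in 11 of 14 cases in WT (median 1.27) and in 11 of 14 in CsA (median 1.03), with 0 lower, where 21.4% and 20.1% of all genes were called. Ppid shared the direction in both, called in CsA alone, and the difference between the 2 responses was not called (0.13, adjusted p = 0.765). At 24 h 3 of 14 were lower in CsA than in WT and 1 higher, against 5.58% of all genes called. Averaged over the times, 10 of 14 were lower in SM-Cn-/- and 0 higher, against 6.69% of all genes lower, with the inducible and the cognate chaperones Hsp90aa1 (-1.20, adjusted p = 2.02e-07) and Hspa8 (-1.15, adjusted p = 3.78e-06) among them, as Ppid was (-0.25).

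Of the splicing factors and kinases beside cyclophilin G, 5 of 16 were lower in untreated CsA than in WT, as Ppig was, and 0 higher, against 11.4% of all genes lower: Clk2 (-0.37), Srsf10 (-0.40), Srsf4 (-0.33), Srsf6 (-0.36) and Srsf5 (-0.35). They are SR proteins of pre-mRNA splicing and a kinase that phosphorylates such proteins. At 2 h of Ang-II 11 of 16 rose in CsA, and 2 rose and 1 fell in WT, where 20.1% and 21.4% of all genes were called. No gene of this list passed the limma test of a difference between these responses, as 0.146% of all genes did. The rise in CsA is measured from the same untreated CsA libraries in which 5 of the genes were lower. Of the 12 genes tested of the U4/U6.U5 particle, beside Ppih, 0 differed between untreated CsA and WT, and at 24 h of Ang-II in WT 4 rose and 1 fell, where 35.0% of all genes were called.

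Other genes of the isomerase families were read in untreated CsA against WT, where 25.2% of all genes were called. Of 9 other genes with a cyclophilin domain 1 was lower, Ppil4 (-0.25, adjusted p = 0.0299). Of 14 FK506-binding proteins, the family that binds tacrolimus, 2 were higher and 3 lower: Fkbp5, a glucocorticoid target (0.95, adjusted p = 0.00417), and Fkbp2 (0.52, adjusted p = 0.00602), against Fkbp10 (-0.75), Fkbp9 (-0.40) and Fkbp14 (-0.50). Neither of the 2 parvulins, 0 of the 7 calcineurin genes tested and not Bsg, the receptor of secreted cyclophilin A (0.21, adjusted p = 0.121), were called. In SM-Cn-/-, averaged over the times, where 11.1% of all genes were called and 6.69% were lower, 1 of 10 other cyclophilin-domain genes was higher (Ppil2, 0.32, adjusted p = 0.0383), 0 of 14 FK506-binding proteins were higher and 4 lower, 0 of 12 mitochondrial partners higher and 3 lower, 0 of 18 endoplasmic reticulum partners higher and 6 lower, 0 of 16 splicing factors higher and 3 lower, and of the 12 particle genes 1 was lower.

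The members also differed in which genes they followed across the 18 libraries of the CsA experiment, given here as a description over libraries that share groups and cell makeup. Ppia and Ppib ran together (Pearson r = 0.87), and both ran with Ppic (0.74 and 0.75). Ppid ran with Ppig (0.75), and Ppif ran against Ppib (-0.58). Among the other 10798 genes with a mean signal of at least 5, the closest to Ppif were Sod2 (0.95), the mitochondrial superoxide dismutase, Immt (0.95), of the inner membrane, and Atp5b (0.95), of the ATP synthase. The closest to Ppia were Mrpl33 (0.92), Selenof (0.92) and Idi1 (0.91), to Ppib Rrbp1 (0.92), S100a11 (0.91) and Tceal8 (0.90), and to Ppic Polr3e (0.79), Pycr1 (0.76) and Snrpb2 (0.76). The closest to Ppid were Ipo7 (0.94), Hnrnpa2b1 (0.94) and Hnrnpc (0.93), of nuclear import and RNA binding. Those to Ppig were AI846148 (0.92), Tspyl2 (0.92) and Dlgap4 (0.90), and those to Ppih Rrm1 (0.91), Cyp4f16 (0.88) and Rab3il1 (0.88).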

How the data were processed

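RNA of 18 libraries of the CsA experiment and 22 of the genotype experiment was aligned by the authors with Bowtie 0.12.7 to GRCm38 and assigned to genes with RSEM 1.16, per the submitters' processing notes. The signal values deposited by the authors equal assigned reads with 0.5 added, over a library size that they had scaled. How they were scaled is not given in the sources used here. Every value of every library converted back to whole reads (tolerance 0.01), and those reads served the edgeR 4.0.16 and DESeq2 1.42.0 alternatives. The tables were normalized separately, and no test crosses them.

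Protein-coding genes (GENCODE M21) with a signal of at least 1 in at least 2 libraries were kept, 13738 in the CsA experiment and 14424 in the genotype experiment. Log2(signal + 0.5) was fitted with limma 3.58.1 in R 4.3.3. Each group had its own mean, variances were moderated along a trend with signal, and p-values were adjusted after Benjamini and Hochberg across every gene tested. A call is an adjusted p under 0.05. Fold changes are on the log2(signal + 0.5) scale, which understates the change of low genes, and intervals are at 95%. Libraries are pools of 3 aortas, and p-values measure the spread between pools. The study had discarded 1 untreated Cn-Ctl library. The same scripts were tested on simulated data before use.

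Genes were matched by symbol within the tables, and levels between genes were compared per kilobase of exon. The members, the partner lists and the cell type markers were chosen with earlier results of these data known. Text names the 7 members, at most 6 called genes per list by adjusted p, Rcan1 and Ppp3r1 as checks, and per member the 3 genes with the highest Pearson r. Alternatives were another pseudocount (1), a stricter filter (mean signal of at least 5), no filter, genes of every biotype, quantile and median-ratio scaling, only the groups compared, edgeR or DESeq2 on the recovered reads, a replicate block, each library left out, and other gene lengths.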

Additional observations from a re-analysis of the deposited data

Results flagged for a closer look

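No cyclophilin had a difference between Ang-II responses that passed the test, and groups of 2 or 3 libraries are too small for a test of single outlying libraries. Among the partner lists the difference between responses was tested by limma and passed in some genes. At 24 h, CsA minus WT, it passed in 10 of 18 endoplasmic reticulum partners of cyclophilins B and C, all negative, among them Sdf2l1 (-2.32, adjusted p = 0.00336), Hspa5 (-1.27, adjusted p = 0.00336) and Pdia6 (-1.19, adjusted p = 0.00319). In the same comparison it passed in 3 mitochondrial partners of cyclophilin D, all negative (Hspd1, Hspe1 and Hspa9), in 2 splicing kinases, both positive (Clk1 and Clk2), in 1 FK506-binding protein (Fkbp9, positive) and in 1 calcineurin gene (Rcan1, negative). For SM-Cn-/- minus Cn-Ctl at 2 h it passed in 4 of 14 HSP90 partners, in 2 mitochondrial partners, in 1 endoplasmic reticulum partner and in 1 calcineurin gene (Rcan1), all negative. At 24 h of the same comparison it passed in 4 endoplasmic reticulum partners (Hspa5, Hyou1, Manf and Serpinh1), all negative.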

How the results depend on the processing

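The number of member values called changed by more than 1.5 times in these settings. For CsA against WT 4 values were called, and DESeq2 called 8. For Ang-II against untreated in WT and CsA 7 were called, against 11 by DESeq2 and 4 when only the groups compared were fitted. For SM-Cn-/- against Cn-Ctl 4 were called, against 1 after quantile normalization and 2 by edgeR. For Ang-II in Cn-Ctl and SM-Cn-/- 0 were called, against 1 after quantile normalization and 1 by DESeq2. Leaving out libraries gave 2 to 5 calls for CsA against WT, 3 to 13 for Ang-II in WT and CsA, 0 to 2 for the difference of their responses, 1 to 4 for the genotypes, and 0 throughout for Ang-II within genotypes and for the difference between genotypes in response. The 13 and the 2 are without CsA at 2 h replicate 1 and at 24 h replicate 3 together, chosen after seeing the data. These libraries had the most Ppif in their groups, so that the calls of Ppif among them are no test. Single libraries that moved a count by more than 1.5 times were WT at 2 h replicate 1 (to 2 for CsA against WT), untreated CsA replicate 1 (to 3) and CsA at 24 h replicate 2 (to 4) for Ang-II, and CsA at 24 h replicate 3 (to 1) for the difference of responses. For the genotypes they were both untreated Cn-Ctl libraries, untreated SM-Cn-/- replicate 3, SM-Cn-/- replicate 2 at 2 h and at 6 h and replicate 3 at 24 h (each to 2), and Cn-Ctl replicate 3 and SM-Cn-/- replicates 1 and 2 at 24 h (each to 1).

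Quantile normalization removed the averaged genotype calls of Ppia (-0.15, adjusted p = 0.215), Ppib (-0.15, adjusted p = 0.298) and Ppid (-0.19, adjusted p = 0.124) and moved the median of all genes in untreated CsA minus WT to -0.11. It also turned the sign of Ppih in CsA minus WT untreated (-0.245) and averaged (-0.126), Ppib at 2 h (0.064), Ppia at 24 h (0.062) and averaged (0.074), Ppia (-0.22), Ppib (-0.212) and Ppig (-0.008) in WT at 2 h against untreated, Ppih in CsA at 2 h against untreated (0.044), and between genotypes Ppia at 2 h (0.015) and 6 h (0.019) and Ppib at 6 h (0.008). Ppig in CsA minus WT at 2 h turned with median-ratio scaling (-0.004) and DESeq2 (-0.012). None of these was called. The cause was not tested.

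Leaving out 1 library turned the sign of other uncalled values. In CsA minus WT they ranged from -0.107 to 0.002 for Ppia at 24 h, -0.119 to 0.018 for Ppib at 2 h, -0.164 to 0.002 for Ppib at 24 h, -0.076 to 0.165 for Ppic at 24 h, -0.23 to 0.031 for Ppid at 2 h, -0.058 to 0.315 and -0.228 to 0.344 for Ppif at 2 h and 24 h, -0.055 to 0.111 for Ppig at 2 h, and -0.068 to 0.26 and -0.006 to 0.105 for Ppih untreated and averaged. For Ang-II in WT they ranged from -0.03 to 0.052 for Ppib at 2 h, and at 24 h from -0.053 to 0.212 for Ppic, -0.14 to 0.004 for Ppid and -0.063 to 0.018 for Ppig. The difference of responses of Ppid at 2 h, CsA minus WT, ranged from -0.025 to 0.237. Between genotypes they ranged from -0.131 to 0.022 for Ppib and -0.057 to 0.615 for Ppif, both untreated, and from -0.288 to 0.165 for Ppih averaged.

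Replicate numbers were treated as names only. Deviations of same-numbered libraries had correlations of -0.39 to 0.38 in the CsA experiment (median -0.03, against -0.01 for other pairs). In the genotype experiment they had -0.37 to 0.34 (median 0.06, against -0.04 for other pairs). There 27 of 71 same-numbered pairs were over 0.1, against 36 of 140 other pairs, so that libraries sharing a number were somewhat more alike. With the replicate block 4, 8, 0, 4, 0 and 0 values were called in the 6 families in the order of their fits (CsA against WT, Ang-II in WT and CsA, difference of responses, genotypes, Ang-II within genotypes, difference between genotypes), the added call being Ppic in CsA at 2 h (0.40, adjusted p = 0.0439).

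Per kilobase of the longest transcript Ppia was at 216.3, Ppid at 13.2, Ppif at 3.74, Ppig at 14.5 and Ppih at 3.79, and per kilobase of the longest protein-coding transcript Ppia was at 425.5, Ppib at 185.9, Ppid at 28.4, Ppif at 8.79, Ppig at 14.5 and Ppih at 3.79. Over 94 member values, alternatives other than left-out libraries kept direction and side of the threshold in 869 cases, gained a call in 20, lost one in 13 and turned the sign in 14. Depth limits Ppih and Ppif in the genotype experiment, where they had as few as 0 and 30 reads per library.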
